A study of Arabidopsis thaliana with 4 samples.

Results

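The WRKY transcription factors of Arabidopsis leaves were followed across 4 RNA sequencing libraries. There was 1 library for each of 2 genotypes, WT and myc2, in each of 2 states, air and R3. The members are 50 loci given by their AGI identifiers, of the 31319 loci that every table lists, and all 50 were found. They make up a large part of the family but not all of it. RefSeq names 19 further WRKY loci that the tables also list, which were not members and of which 10 stayed below 1 RPKM in all 4 libraries, with 6.08 RPKM as the highest value of any. All groups are in the Col-0 background. WT is the unmutated line and myc2 carries the myc2-2 allele of MYC2, a transcription factor of the jasmonate response. Air leaves were sampled before submergence. R3 leaves carry the label 3 h after submergence, while the protocol describes 24 h under water in the dark followed by harvests at 0 and 24 h of reoxygenation. The 3 h therefore rest on the sample labels. Each library was made from leaves pooled from 6 plants of 4 weeks of age. R3 and air also differ in darkness and hour of harvest, which cannot be told apart here from submergence and reoxygenation. The study asked how jasmonate acts in the response of submerged plants to the return of oxygen.

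WRKY factors are plant transcription factors named for a conserved peptide at the start of their DNA-binding domain, which also holds a zinc finger. Most bind the W box, a short promoter element with the core TTGAC, and many WRKY genes have W boxes in their own promoters, so that members regulate themselves and each other. Group I proteins carry a pair of WRKY domains, groups IIa to IIe carry a single one, and group III has a different zinc finger. In leaves the family is known for control of immune responses downstream of MAP kinases, of the balance between salicylic acid and jasmonate, and of senescence, wounding and heat responses. WRKY22 in particular is known from submerged Arabidopsis plants, where it links flooding to immunity. The group of each member is textbook knowledge and was not derived from the files. The 50 members comprise 10 of group I, 3 of IIa, 6 of IIb, 10 of IIc, 7 of IId, 5 of IIe and 9 of group III.

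The upstream sequences of 6 members are shown first, because a W box is the element through which WRKY factors act on WRKY genes. Each is the 300 bases before the annotated gene start in the RefSeq genome TAIR10.1, read 5′ to 3′ on the strand of the gene, with W boxes in capitals. Motifs searched were TTGACC and TTGACT on both strands, so AGTCAA and GGTCAA also stand in capitals, and the G box CACGTG, the element bound by MYC2, of which none lies in these 6. WRKY33 (chr2:16107935-16108234, plus strand) and WRKY30 (chr5:8154711-8155010, minus strand) are the members with the most W boxes in this window, 3 each. WRKY29 (chr4:12291332-12291631, plus strand) and WRKY46 (chr2:19044956-19045255, minus strand) had the highest ratios of R3 to air in WT, with 2 and 0 W boxes. WRKY55 (chr2:16996778-16997077, plus strand) had the highest ratio of myc2 to WT at R3 and holds 1. WRKY3 (chr2:1017223-1017522, minus strand), between 13.4 and 18.1 RPKM in all 4 libraries, holds 0.
WRKY33: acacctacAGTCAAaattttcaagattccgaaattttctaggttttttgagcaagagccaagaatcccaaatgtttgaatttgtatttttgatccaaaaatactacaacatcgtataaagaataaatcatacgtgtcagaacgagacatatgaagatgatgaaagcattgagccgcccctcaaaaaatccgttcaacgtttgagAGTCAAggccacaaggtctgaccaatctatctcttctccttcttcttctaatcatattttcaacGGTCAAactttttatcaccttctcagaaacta
WRKY30: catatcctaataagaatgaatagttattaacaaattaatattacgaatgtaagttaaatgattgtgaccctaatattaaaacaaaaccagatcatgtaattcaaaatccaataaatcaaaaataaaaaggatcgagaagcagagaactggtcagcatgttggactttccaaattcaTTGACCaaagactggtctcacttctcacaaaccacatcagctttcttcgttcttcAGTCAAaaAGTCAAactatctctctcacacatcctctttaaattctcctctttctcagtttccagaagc
WRKY29: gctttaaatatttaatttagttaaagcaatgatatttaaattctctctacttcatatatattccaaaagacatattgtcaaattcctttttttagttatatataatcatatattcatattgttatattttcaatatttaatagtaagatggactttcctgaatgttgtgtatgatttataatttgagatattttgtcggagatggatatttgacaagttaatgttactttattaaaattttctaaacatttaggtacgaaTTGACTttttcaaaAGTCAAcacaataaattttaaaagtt
WRKY46: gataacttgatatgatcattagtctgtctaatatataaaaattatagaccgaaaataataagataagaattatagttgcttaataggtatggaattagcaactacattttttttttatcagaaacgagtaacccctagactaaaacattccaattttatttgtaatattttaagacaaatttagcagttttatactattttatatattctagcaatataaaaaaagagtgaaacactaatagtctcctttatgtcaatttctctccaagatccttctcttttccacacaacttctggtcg
WRKY55: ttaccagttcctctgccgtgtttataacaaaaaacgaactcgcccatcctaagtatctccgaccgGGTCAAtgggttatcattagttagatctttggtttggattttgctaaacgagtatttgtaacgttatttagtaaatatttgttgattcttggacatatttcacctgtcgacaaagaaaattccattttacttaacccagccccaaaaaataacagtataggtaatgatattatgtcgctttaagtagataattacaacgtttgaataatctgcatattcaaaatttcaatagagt
WRKY3: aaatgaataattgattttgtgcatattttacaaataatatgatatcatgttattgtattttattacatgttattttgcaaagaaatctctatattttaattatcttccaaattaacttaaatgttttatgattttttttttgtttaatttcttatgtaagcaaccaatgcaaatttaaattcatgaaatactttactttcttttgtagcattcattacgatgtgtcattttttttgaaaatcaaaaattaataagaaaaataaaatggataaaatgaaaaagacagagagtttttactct

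At least 1 W box lay in the 300 bases upstream of 21 of the 50 members (42.0%), compared with 32.3% of 26711 protein-coding loci listed and with 38.1% of the 5375 such loci that were at least 2-fold higher at R3 in WT and averaged 1 RPKM or more. In 1000 bases upstream these shares were 84.0%, 67.4% and 71.4%. A G box was found in 300 bases upstream of 5 of the 50 members, compared with 7.18% of all protein-coding loci and 8.76% of those higher at R3. In 1000 bases it was found for 16 members (32.0%), compared with 14.9% and 17.5%. No W box overlapped a G box in the 300 bases of any member. Among members, the median log2 ratio of R3 to air in WT was 1.86 for the 29 without a W box in 300 bases and 2.64 for the 19 with 1 or 2, while WRKY33 and WRKY30 stood at 3.51 and 3.46. The ranges overlapped widely, from 0.12 to 4.49 without a W box and from 0.41 to 4.70 with 1 or 2. These matches describe letters in a window and not binding. The windows of 300 bases of WRKY7, WRKY25, WRKY26, WRKY45 and WRKY61 overlap another annotated gene. Of these, WRKY25, WRKY26 and WRKY45 are counted with a W box, and WRKY45 also with a G box. Windows of 1000 bases and those of other loci can also reach into a neighbouring gene.

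**Figure D1:**
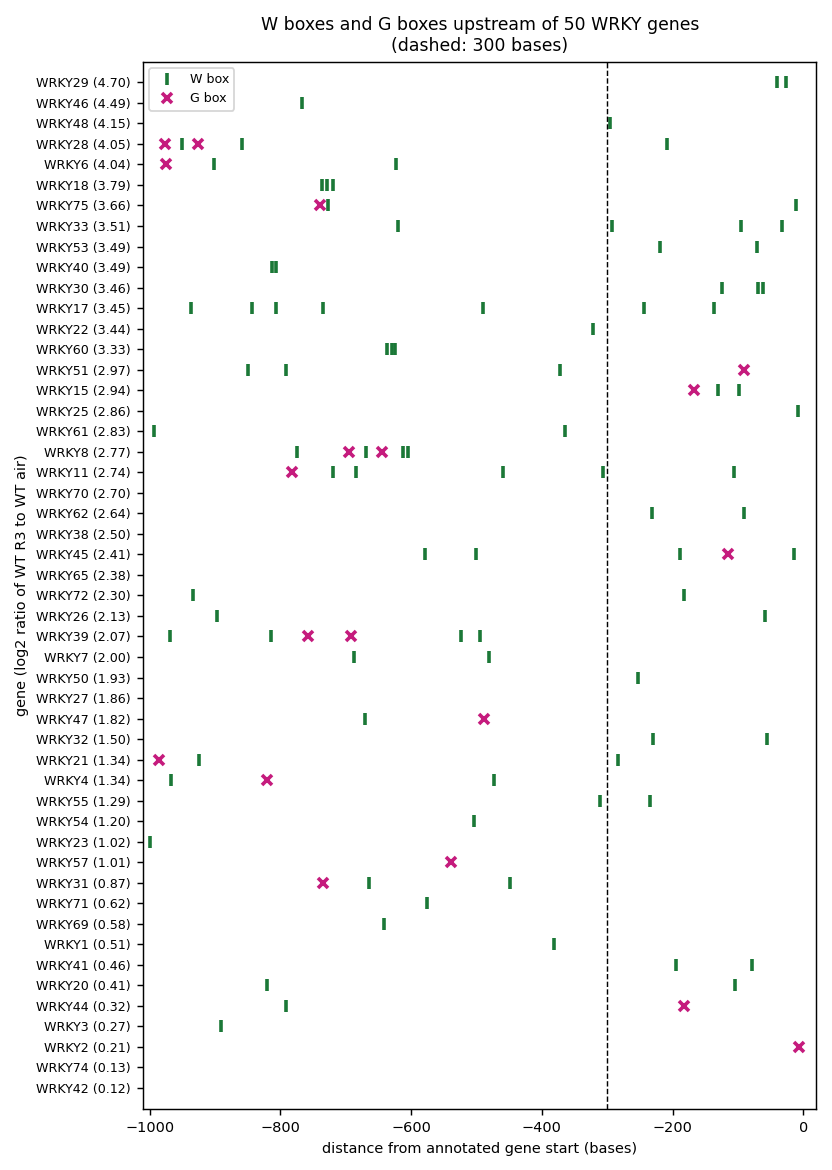
W boxes (green bars) and G boxes (pink crosses) by distance from the annotated gene start in bases, for the 50 members ordered by their log2 ratio of WT R3 to WT air, which stands in brackets. Members with boxes near the start lie in the upper and in the lower part of the order, and 29 members have no W box right of the dashed line at 300 bases.

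Levels are in RPKM, that is per kilobase of gene and per 1000000 mapped reads. Where 4 levels follow each other, the first pair is WT in air and at R3 and the second pair is myc2 in air and at R3. Because the unit is per length, levels of different genes can be compared. With 1 library per group no test was possible, no p-value is given, and none of the differences has a replicate check. Ratios are log2((RPKM + 1)/(RPKM + 1)) unless called a fold of the RPKM values, and 2-fold is a log2 ratio of 1. The libraries held an estimated 22.3 to 30.5 times 1000000 fragments, and an error given after ± is the standard error of counting on those estimates, which covers neither plants nor library preparation. The value listed for MYC2 itself was lower in both myc2 libraries, with log2 ratios to WT of −1.63 in air and −1.37 at R3. A gene on the opposite strand overlaps 3241 of its 3289 exon bases, and the use of strand is not given. Reads of the overlapping genes could therefore not be separated. The 7 mesophyll markers summed to 44073 and 31961 RPKM in the air libraries of WT and myc2 and to 4679 and 4748 at R3, all 7 more than 2-fold lower there. Of 3 guard cell markers, GC1 had a log2 ratio of R3 to air of −2.45 in both genotypes, and FAMA had 1.23 in WT and 0.58 in myc2. The phloem marker SUC2 was lower in myc2 in both states, at −0.77 in air and −0.86 at R3. The 4 seed markers summed to at most 0.411 RPKM in any library, and the 5 floral markers to 5.41, 13.5, 9.71 and 21.9, most of it at R3 from PISTILLATA. The 3 root markers summed to 2.92, 62.9, 6.60 and 11.4, nearly all from PYK10, and the other 2 were at most at 0.0850 in each library. The part of leaf composition in the values below was not tested. In bulk leaf RNA, fewer cells of a type and less RNA per cell cannot be told apart.

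WRKY transcripts were scarce in air and abundant at R3 in both genotypes. The 50 members summed to 150.04 RPKM in WT air and 1078 in WT R3, and to 182 in myc2 air and 1407 in myc2 R3, which is 7.19-fold and 7.72-fold more at R3. They took 0.0240%, 0.204%, 0.0298% and 0.241% of all RPKM in the 4 libraries. The median member was at 1.67, 13.3, 1.80 and 17.9 RPKM. In WT air 20 members were below 1 RPKM and 3 reached 10, whereas in WT R3 3 were below 1 and 32 reached 10. In myc2 air 17 were below 1 and 3 reached 10, and in myc2 R3 2 were below 1 and 32 reached 10. No member was listed at 0 in any library.

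**Figure D2:**
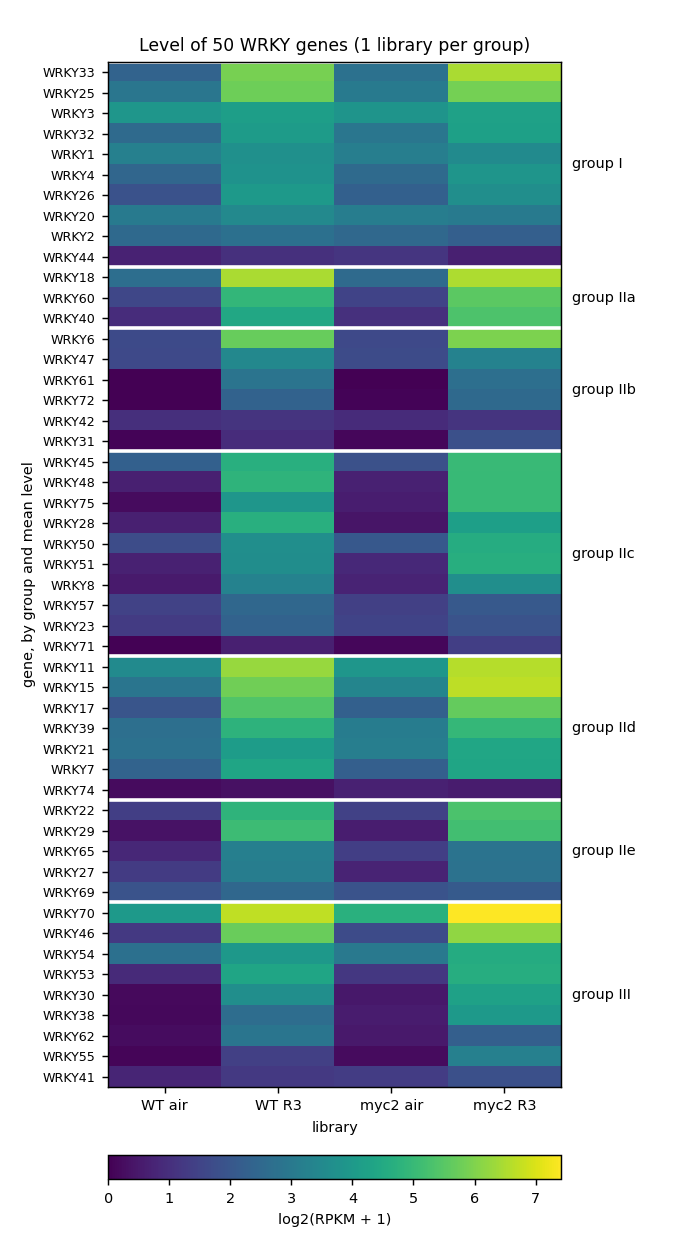
Level of each of the 50 members as log2(RPKM + 1) in the 4 libraries (columns, 1 library each), sorted by group and by mean level within a group. The R3 columns are brighter than the air columns in nearly every row, and WRKY70 is the brightest row, reaching 170.0 RPKM in myc2 R3.

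The highest member was the same in every library. WRKY70 (AT3G56400), a factor that promotes salicylic acid responses and restrains jasmonate responses and senescence, was at 15.2, 104, 25.1 and 170.0 RPKM, and it alone made up 10.1%, 9.65%, 13.8% and 12.1% of the members' summed level. The order below it changed between air and R3. In WT air WRKY70 was followed by WRKY3 (AT2G03340) at 13.8 RPKM, WRKY11 (AT4G31550) at 10.7, WRKY1 (AT2G04880) at 8.35 and WRKY20 (AT4G26640) at 7.38. At R3 in WT it was followed by WRKY18 (AT4G31800) at 88.4, WRKY11 at 77.0, WRKY33 (AT2G38470) at 58.1 and WRKY15 (AT2G23320) at 55.4. In myc2 air WRKY70 was followed by WRKY11 at 14.0, WRKY3 at 13.4 and WRKY15 at 9.39. In myc2 R3 the next were WRKY15 at 101, WRKY11 at 94.9, WRKY18 at 90.2 and WRKY33 at 88.5. Neighbours this close in a single library, such as WRKY33 and WRKY15 in WT R3, cannot be put in order without replicates. The 5 highest members made up between 35.5% and 38.7% of the members' sum in each library.

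In WT, every one of the 50 members was higher at R3 than in air on the log2 scale, 39 of them at least 2-fold, and none was 2-fold lower. With the libraries rescaled to the median of ratios, WRKY1, WRKY2, WRKY3, WRKY20 and WRKY42 turned to slightly lower at R3. Without a filter, 17.7% of all 31319 loci were at least 2-fold higher and 5.72% at least 2-fold lower. A filter then kept genes averaging 1 RPKM or more over the 2 libraries, which 45 members passed. Of these 38 reached 2-fold higher and 0 reached 2-fold lower, against 31.3% higher and 10.1% lower of 17271 genes. Of these 45, 15 were below 1 RPKM in air and passed through their R3 level. Of the 30 members that reached 1 RPKM in WT air itself, 24 were at least 2-fold higher at R3, against 26.8% of 16078 genes chosen in the same way. The log2 ratios of all 50 members had a median of 2.34 and ran from 0.12 to 4.70, beside a median of 0.03 for all loci. Past the filter on the average of the 2 libraries, the median was 2.50 for the members and 0.57 for all genes. Rescaling the libraries to the median of their ratios moved that median of all genes to 0.04 and left 32 of 45 members past 2-fold upward and 0 downward, against 17.3% higher and 17.1% lower of 17347 genes. As deposited, 13 of the 45 members past the filter were among the 500 highest ratios of the 17271 genes. Of these, WRKY28, WRKY29, WRKY30, WRKY40, WRKY48, WRKY53 and WRKY75 were below 1 RPKM in WT air and passed through their R3 level.

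In myc2 the same comparison gave a similar count. Without a filter 39 of the 50 members reached 2-fold upward and 0 downward, against 13.8% and 6.69% of all loci. With the filter 38 of 47 were higher and 0 lower, against 23.5% and 11.5% of 17737 genes. On the scale of the median of ratios 36 of 46 were higher and 0 lower, against 17.1% and 15.9% of 17637 genes. As deposited, the median log2 ratio past the filter was 2.68 for the members and 0.30 for all genes. Over all 50 members it was 2.51, beside 0.0 over all loci. Of the 47 members past the filter, 15 were among the 500 highest ratios of the 17737 genes. Among these 15, WRKY28, WRKY29, WRKY30, WRKY38, WRKY48, WRKY51 and WRKY75 were below 1 RPKM in myc2 air. Of the 47, 15 were below 1 RPKM in 1 of the 2 libraries. Of the 33 members that reached 1 RPKM in myc2 air, 24 were at least 2-fold higher, against 19.5% of 16930 genes. Of all 50 members 46 were higher and 4, WRKY2, WRKY20, WRKY44 and WRKY74, were lower, and WRKY69 joined these with the median of ratios. In all, 37 members were at least 2-fold higher in both genotypes, 2 in WT alone, 2 in myc2 alone and 9 in neither. The matching shares of all loci were not computed, so this overlap is not read as a trait of the members. The 2 in WT alone were WRKY23 (AT2G47260), with log2 ratios of 1.02 in WT and 0.42 in myc2, and WRKY57 (AT1G69310), with 1.01 and 0.66. The 2 in myc2 alone were WRKY31 (AT4G22070), with 0.87 and 1.69, and WRKY71 (AT1G29860), with 0.62 and 1.23. WRKY23 and WRKY57 lay just past 2-fold in WT, and WRKY31 and WRKY71 were below 1 RPKM in 3 of the 4 libraries. Across the 50 members the WT and myc2 ratios correlated at r = 0.94 (Spearman 0.94), given as a description. They come from separate libraries but share gene length and pseudocount.

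**Figure D3:**
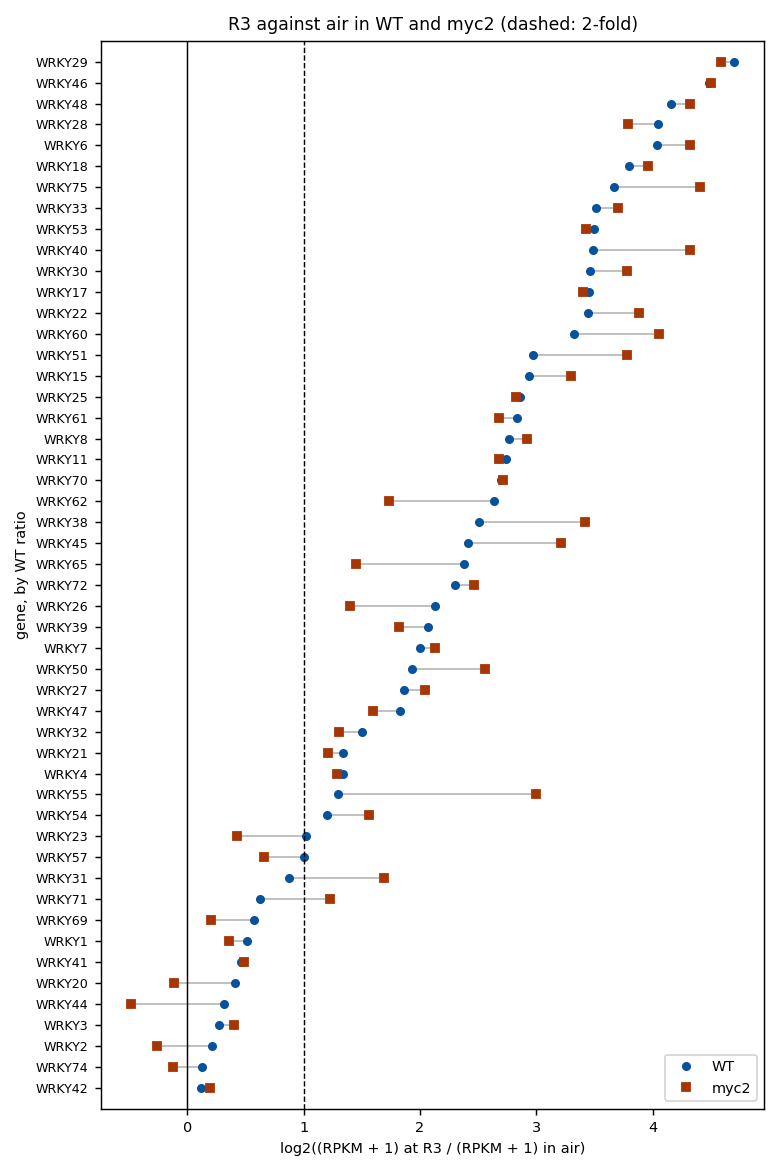
Log2 ratio of (RPKM + 1) at R3 to (RPKM + 1) in air for each member, in WT (blue circles) and myc2 (brown squares), ordered by the WT ratio, with 1 library behind each value and a dashed line at 2-fold. Blue and brown lie close for most members from WRKY29 at the top to WRKY42 at the bottom, and the widest gap is that of WRKY55, at 1.29 in WT and 3.00 in myc2.

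By group, both the summed level and the median member stood furthest apart in IIa and least in group I, and the groups between them changed order with the measure. The WT sums at R3 were 16.5-fold those in air for IIa, 13.6-fold for IIb, 11.7-fold for IIe, 11.2-fold for IIc, 8.89-fold for III, 6.64-fold for IId and 3.50-fold for I. In myc2 these were 22.7, 15.6, 12.4, 14.6, 8.69, 6.67 and 3.60, in the same order of groups, so IIc and IIe exchanged places. Sums can rest on 1 gene, as with WRKY6, which made up 50.7 of the 73.2 RPKM of IIb in WT R3. The median log2 ratio of the single members in WT was 3.49 in IIa, 2.64 in III, 2.59 in IIc, 2.38 in IIe, 2.07 in IId, 2.06 in IIb and 0.92 in I. Group I held 38.5% of the members' sum in WT air and 18.7% at R3. Group IIa held 5.58% and 12.8%, and group III 16.2% and 20.1%. In summed level groups IId (237 RPKM), III (216) and I (202) were the highest in WT R3, and groups III (336) and IId (316) in myc2 R3.

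**Figure D4:**
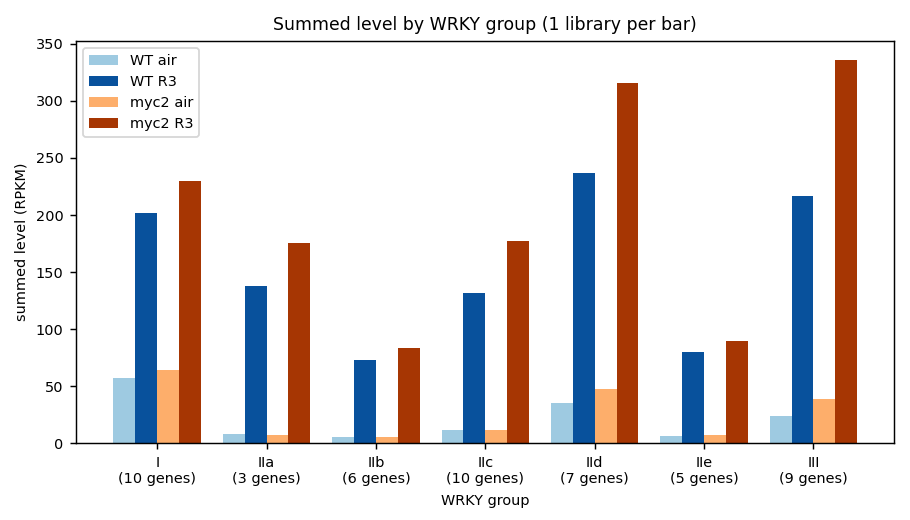
Summed level in RPKM of the members of each WRKY group in the 4 libraries, with 1 library per bar and the number of genes under each group. In air group I is the tallest at 57.8 RPKM in WT and 63.9 in myc2, and at R3 groups IId and III pass it.

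The 3 members of group IIa bind each other's proteins and are known as modulators of defence and of abscisic acid signalling. WRKY18 was at 5.45, 88.4, 4.88 and 90.2 RPKM, and WRKY40 (AT1G80840) at 0.927, 20.6, 1.03 and 39.6 RPKM. WRKY60 (AT2G25000) was at 2.00, 29.1, 1.80 and 45.5 RPKM. All 3 were far higher in both R3 libraries than in either air library. At R3, WRKY18 was alike in the genotypes, with a log2 ratio of myc2 to WT of 0.03 ± 0.03, which turned direction under 2 of the 3 rescalings. WRKY40 and WRKY60 were higher in myc2, by 0.91 ± 0.06 and 0.63 ± 0.05. WRKY18 transcript was 4.28 times that of WRKY40 in WT R3 and 2.28 times in myc2 R3. A gene on the opposite strand overlaps the end of WRKY40, and 4.07% of the 50-base words in its exons occur elsewhere in the genome. None of the other 49 members had such a word elsewhere.

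Group III held the highest member and several of the lowest in air. WRKY46 (AT2G46400), which acts with WRKY70 and WRKY53 in basal resistance, was at 1.36, 51.9, 2.25 and 72.5 RPKM. WRKY53 (AT4G23810), a promoter of leaf senescence, was at 0.828, 19.6, 1.28 and 23.6 RPKM, and WRKY54 (AT2G40750), which restrains senescence together with WRKY70, was at 5.73, 14.5, 6.97 and 22.5 RPKM. All were higher at R3 in both genotypes, WRKY46 and WRKY53 more than WRKY54 and WRKY70. The level of WRKY70 was 2.65 times that of WRKY54 in WT air and 7.19 times in WT R3. WRKY30 (AT5G24110), known from responses to oxidative stress, was at 0.150, 11.6, 0.391 and 18.0 RPKM. WRKY38 (AT5G22570) and WRKY62 (AT5G01900), which both restrain basal defence, went apart between the genotypes. WRKY38 was at 0.110, 5.30, 0.474 and 14.7 RPKM and WRKY62 at 0.193, 6.42, 0.433 and 3.76 RPKM, so that at R3 the level of WRKY38 was 0.825 times that of WRKY62 in WT and 3.92 times in myc2. WRKY41 (AT4G11070) was at most 2.52 RPKM in any library. WRKY54 and WRKY55 (AT2G40740) lie next to each other on chromosome 2. WRKY55, a promoter of senescence, was at 0.0815, 1.65, 0.172 and 8.36 RPKM, of which the WT air value rests on an estimated 2.86 fragments and the myc2 R3 value on 224.

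Group I contained both strongly different and nearly even members. WRKY33, a target of MAP kinases that activates camalexin synthesis, was at 4.18, 58.1, 5.87 and 88.5 RPKM. WRKY25 (AT2G30250) and WRKY26 (AT5G07100), which act with WRKY33 in heat tolerance, were at 6.58, 54.0, 7.31 and 57.8 RPKM and at 2.67, 15.1, 3.86 and 11.8 RPKM. All 3 were more than 2-fold higher at R3 in both genotypes. WRKY4 (AT1G13960), known with WRKY3 from resistance to necrotrophic fungi, was at 4.47, 12.8, 4.95 and 13.5 RPKM, whereas WRKY3 was at 13.8, 16.9, 13.4 and 18.1 RPKM. WRKY32 (AT4G30935) was at 4.90, 15.7, 6.60 and 17.8 RPKM. The other 4 were less than 2-fold apart in every comparison on the log2 scale. As a fold of the RPKM values, which the pseudocount does not shrink, WRKY44 in myc2 R3 was 0.483 times myc2 air. WRKY1 was between 8.05 and 12.3 RPKM, WRKY2 (AT5G56270) between 3.76 and 5.71, WRKY20 between 7.26 and 10.1, and WRKY44 (AT2G37260), also called TTG2 and known from trichome and seed coat development, between 0.584 and 1.21. The WT direction of WRKY1, WRKY2, WRKY3 and WRKY20 turned when the libraries were rescaled to the median of ratios.

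In group IIb, WRKY6 (AT1G62300), a factor of senescence and defence that also represses the phosphate exporter gene PHO1, was at 2.15, 50.7, 2.09 and 60.5 RPKM. WRKY42 (AT4G04450), which acts on PHO1 as well, was nearly even, between 0.876 and 1.17 RPKM, and turned direction in WT under 2 of the 3 rescalings. WRKY6 transcript was 2.15 times that of WRKY42 in WT air and 43.2 times in WT R3. WRKY47 (AT4G01720) was at 2.13, 10.1, 2.22 and 8.76 RPKM. WRKY61 (AT1G18860) was at 0.0197, 6.26, 0.0189 and 5.53 RPKM, and WRKY72 (AT5G15130), known from basal defence, at 0.0125, 3.99, 0.0478 and 4.80 RPKM. In WT air WRKY61 and WRKY72 rest on an estimated 1.09 and 0.738 fragments, so no fold is given for them. WRKY31 reached 2.54 RPKM at most.

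In group IIc several members were below 1 RPKM in air and above 10 at R3. WRKY75 (AT5G13080), known for phosphate acquisition and for promoting senescence, was at 0.170, 13.8, 0.512 and 31.1 RPKM. WRKY28 (AT4G18170), an activator of the salicylic acid synthesis gene ICS1, was at 0.559, 24.8, 0.335 and 17.4 RPKM, and WRKY48 (AT5G49520), a repressor of basal resistance, at 0.586, 27.2, 0.600 and 30.9 RPKM. Their WT levels at R3 were 81.4, 44.3 and 46.5 times those in air, on an estimated 4.02, 23.7 and 32.9 fragments in air. WRKY45 (AT3G01970), which activates the phosphate transporter gene PHT1;1 and promotes senescence, was at 3.81, 24.6, 2.55 and 31.9 RPKM. WRKY8 (AT5G46350), known from salt and virus responses, was at 0.436, 8.77, 0.674 and 11.6 RPKM. WRKY50 (AT5G26170) and WRKY51 (AT5G64810), which mediate repression of jasmonate signalling by salicylic acid, were at 2.30, 11.6, 3.10 and 23.2 RPKM and at 0.591, 11.5, 0.826 and 24.1 RPKM. WRKY50 was 3.89 times as high as WRKY51 in WT air, and the pair were level at R3, at 1.01 times in WT and 0.963 times in myc2. WRKY57 was at 1.76, 4.54, 1.66 and 3.20 RPKM and WRKY23 at 1.47, 4.00, 1.80 and 2.75 RPKM. WRKY71 reached 1.58 RPKM at most.

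The members of group IId, which bind calmodulin, were mostly expressed in air already. WRKY11 and WRKY17 (AT2G24570), both negative regulators of basal resistance, were at 10.7, 77.0, 14.0 and 94.9 RPKM and at 2.90, 41.6, 3.82 and 49.8 RPKM. WRKY11 exceeded WRKY17 by 3.69 times in WT air and 1.85 times in WT R3. WRKY15, known from responses to mitochondrial and oxidative stress, was at 6.35, 55.4, 9.39 and 101 RPKM. WRKY7 (AT4G24240) was at 4.12, 19.5, 3.73 and 19.7 RPKM, WRKY39 (AT3G04670) at 5.57, 26.6, 7.64 and 29.4 RPKM and WRKY21 (AT2G30590) at 5.85, 16.3, 8.11 and 20.1 RPKM. WRKY74 (AT5G28650) was the exception with 0.617 RPKM at most. All but WRKY74 were at least 2-fold higher at R3 in both genotypes as deposited. WRKY21 fell short in both with the median of ratios, at 0.79 in WT and 0.91 in myc2, and with a pseudocount of 5, at 0.97 and 0.94.

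In group IIe, WRKY29 (AT4G23550) had the highest log2 ratio of all members in both genotypes, 4.70 in WT and 4.59 in myc2, at 0.295, 32.7, 0.514 and 35.3 RPKM. It ranked 152 of 17271 genes in WT and 203 of 17737 in myc2. WRKY22 (AT4G01250), which like WRKY29 is known from the MAP kinase cascade triggered by flagellin, was at 1.59, 27.2, 1.71 and 38.9 RPKM. WRKY22 was 5.40 times as high as WRKY29 in WT air and 0.831 times in WT R3. WRKY27 (AT5G52830) was at 1.43, 7.80, 0.683 and 5.93 RPKM and WRKY65 (AT1G29280) at 0.777, 8.23, 1.58 and 6.07 RPKM. WRKY69 (AT3G58710) was between 2.72 and 4.61 RPKM. In the annotation genes on the opposite strand overlap the exons of 10 members, namely WRKY1, WRKY2, WRKY4, WRKY29, WRKY33, WRKY40, WRKY41, WRKY53, WRKY61 and WRKY69, and since the use of strand is not given their reads could not be separated.

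The genotypes were then compared in air, before submergence. None of the 50 members was 2-fold apart on the log2 scale in either direction between myc2 air and WT air, with or without the filter, against 2.47% higher and 0.343% lower of 16616 genes past it, of which 32 were members. Of all loci 1.35% and 0.195% were so without the filter, so the count of 0 is near the background. Folds of the RPKM values are not shrunk by the pseudocount. Among members past the filter, WRKY41 was 2.13 and WRKY65 2.03 times as high in myc2, and WRKY27 0.479 times. Members short of the filter and past 2-fold on this measure were all higher in myc2. They were WRKY38 (4.31), WRKY71, WRKY72 and WRKY74 (3.84 each), WRKY75 (3.01), WRKY30 (2.60), WRKY62 (2.24) and WRKY55 (2.11). In WT air each of these rests on an estimated 6.78 fragments or fewer. The share of all genes past 2-fold on this measure was not computed, so no result about the members is read from these folds. The sum of the members was 1.21 times as high in myc2. Their median log2 ratio was 0.16, compared with 0.22 for all genes past the filter, and single values ran from −0.53 (WRKY27 (AT5G52830)) to 0.69 (WRKY70). The ratio was positive for 36 of the 50 members, and the share of all genes with a positive ratio was not computed. In group III the ratio was positive for all 9, with a median of 0.32, although only 5 of these passed the filter. In IId it was positive for 6 of 7, with a larger median of 0.40. Since the median of all genes was also positive, these majorities are not read as a trait of the members. WRKY70 in air was at 0.69 ± 0.07. The direction of 9 members turned after rescaling to the median of ratios, among them WRKY54 of group III.

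At R3, 4 members were at least 2-fold higher in myc2 than in WT and none was 2-fold lower, with or without the filter. Past it these are 4 of 48, against 1.92% higher and 1.6% lower of 17491 genes. Of all loci 1.12% and 0.929% were so without the filter. They were WRKY55 at a log2 ratio of 1.82 ± 0.15, WRKY38 at 1.32 ± 0.11, WRKY75 at 1.11 ± 0.10 and WRKY51 at 1.01 ± 0.10. WRKY51 lay just past 2-fold and stood at 0.99 after rescaling to the median of ratios. Just short of 2-fold were WRKY50 (0.94), WRKY40 (0.91), WRKY31 (0.87) and WRKY15 (0.86). At the other end stood WRKY62 at −0.64 ± 0.15, WRKY2 at −0.50 ± 0.09 and WRKY28 at −0.49 ± 0.07. Past the filter the members' median was 0.23, against 0.04 for all genes. Over all 50 members it was 0.22, beside 0.0 over all loci. Of the 50 members 35 were higher and 15 lower, and the matching shares of all genes were not computed. The direction of 6 members turned with an equal sum, of 2 with the sum without the 50 highest genes and of 0 with the median of ratios. By group the median ran from 0.63 in IIa and 0.59 in III to −0.06 in I and −0.34 in IIe.

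**Figure D5:**
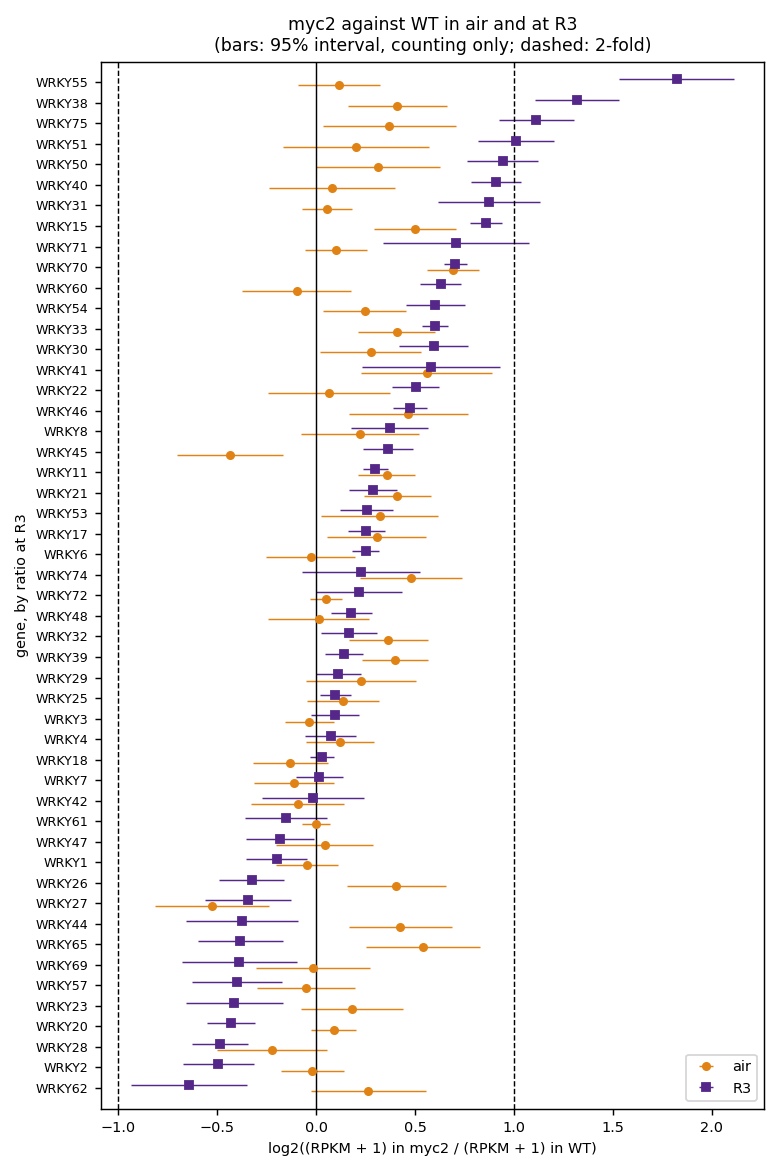
Log2 ratio of (RPKM + 1) in myc2 to (RPKM + 1) in WT for each member in air (orange circles) and at R3 (purple squares), ordered by the ratio at R3, with bars of the 95% interval of counting error and 1 library behind each level. Of the 50 members, WRKY55, WRKY38, WRKY75 and WRKY51 lie past the dashed line at 2-fold at R3, and no circle passes it in air.

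The responses of the genotypes were compared by subtracting the WT log2 ratio from the myc2 one. The difference reached 1 for WRKY55 alone, at 1.71 ± 0.18, and −1 for no member, which is 1 and 0 of 46 members past the filter, against 1.51% higher and 5.2% lower of 17540 genes, and 0.974% and 3.12% of all loci. Next in the positive direction came WRKY38 (0.91), WRKY40 (0.83), WRKY31 (0.82), WRKY51 (0.81) and WRKY45 (0.80). The direction of WRKY38 rests on the pseudocount. As folds of the RPKM values, its R3 level was 48.2 times air in WT and 31.0 times in myc2. Its WT air value rests on an estimated 4.19 fragments. In the negative direction came WRKY65 (−0.92), WRKY62 (−0.91), WRKY44 (−0.80) and WRKY26 (−0.73). On the deposited scale the difference was positive for 27 members and negative for 23. These counts turned with the scaling, to 35 and 15 with the median of ratios and to 18 and 32 with an equal sum. With a pseudocount of 0.1 they were 21 and 29, so no majority is read from them. In group I, 8 of 10 were negative on the deposited scale, 4 of 10 with the median of ratios and 10 of 10 with an equal sum. In IIa, all 3 were positive on the deposited scale and with the median of ratios, and WRKY18 turned with an equal sum. WRKY70, WRKY46 and WRKY53 stood at 0.01, 0.01 and −0.07 on the deposited scale. Over the rescalings WRKY70 ran from −0.17 to 0.28, WRKY46 from −0.23 to 0.17 and WRKY53 from −0.29 to 0.06, so their direction was not stable.

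Genes known to act upstream of WRKY factors were also higher at R3. Of 10 MAP kinase cascade genes, 9 were at least 2-fold higher in WT and 9 in myc2, none lower, against 31.3% and 23.5% of all genes. None was 2-fold apart between genotypes, which is near the background of 1.92% and 1.6% at R3. The list's median log2 ratio was 1.56 in WT and 1.60 in myc2, beside 0.57 and 0.30 for all genes. MPK11 (AT1G01560), a kinase activated by microbial patterns, was at 0.467, 14.4, 0.686 and 27.5 RPKM. It was below 1 RPKM in both air libraries and passed the filter through its R3 level. MKK5 (AT3G21220), a kinase that activates MPK3 and MPK6, was at 7.60, 41.5, 10.3 and 46.6 RPKM. MKK9 (AT1G73500) was at 9.21, 33.0, 10.7 and 42.5 RPKM, and MPK4 (AT4G01370) at 15.3, 52.3, 19.3 and 67.5 RPKM. Opposite-strand genes overlap MPK4 and MKK5.

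VQ proteins bind WRKY factors and alter their activity. Of 13 genes, 12 passed the filter in WT, of which 10 reached 2-fold upward at R3 and 0 downward, and in myc2 9 of 11 were higher, against 31.3% and 23.5% of all genes. The median log2 ratios were 1.90 and 1.98, beside 0.57 and 0.30 for all genes. AT1G80450, a VQ motif gene, was at 1.64, 37.6, 3.11 and 35.3 RPKM. JAV1 (AT3G22160), a repressor of jasmonate-mediated defence, was at 2.21, 25.0, 2.41 and 38.9 RPKM, and AT1G78410 at 1.71, 15.03, 3.48 and 26.0 RPKM. AT1G68450 was listed at 0 in both air libraries and was at 9.33 in WT R3 and 15.95 in myc2 R3, so it passed the filter through its R3 level. Between genotypes, SIB1 (AT3G56710), a partner of WRKY33, was at 4.99, 30.1, 8.37 and 65.1 RPKM, with a log2 ratio of myc2 to WT of 1.09 at R3. SIB2 (AT2G41180), which an opposite-strand gene overlaps, was at 9.76, 22.6, 22.5 and 40.9 RPKM, with 1.13 in air. VQ29 (AT4G37710) was at 0.0557 and 2.76 in WT, listed at 0 in myc2 air and at 0.729 in myc2 R3. In WT it too passed the filter through its R3 level.

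Of 20 genes reported as targets of WRKY factors, 18 passed the filter in WT, with 12 reaching 2-fold upward at R3 and 2, PR1 and the catalase gene CAT2, downward. In myc2 12 of 17 were higher and 1, the camalexin synthesis gene CYP71A13, was lower. Of all genes 31.3% were higher and 10.1% lower in WT, and 23.5% and 11.5% in myc2. Of the targets higher in WT, ABI5, ACS2, FRK1, JAZ8, PHT1;1 and RRTF1 were below 1 RPKM in WT air and passed through their R3 level. The same held in myc2, except that RRTF1 did not pass the filter there. FRK1 (AT2G19190), a receptor kinase gene activated by WRKY6 and overlapped by an opposite-strand gene, was at 0.193, 44.7, 0.160 and 64.0 RPKM. PHT1;1 (AT5G43350), the phosphate transporter gene, was listed at 0 in WT air and was at 22.0 RPKM in WT R3, 10.6 in myc2 R3 and 0.0456 in myc2 air, with a difference of responses of −1.05. ACS2 (AT1G01480) and PAD3 (AT3G26830), targets of WRKY33 in ethylene and camalexin synthesis, were at 0.105, 15.3, 0.138 and 26.4 RPKM and at 2.03, 30.7, 4.22 and 30.0 RPKM. ACS6 (AT4G11280), another ethylene synthesis gene, was at 3.63, 27.9, 9.28 and 44.6 RPKM, with a log2 ratio of myc2 to WT of 1.15 in air.

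Among the 17 of these targets past the filter, 2 were 2-fold higher and 2 were 2-fold lower in myc2 at R3, against 1.92% and 1.6% of all genes. ICS1 (AT1G74710) was at 2.46, 11.8, 2.88 and 28.6 RPKM. PR1 (AT2G14610), a marker of salicylic acid responses, was lower at R3 than in air in WT and higher in myc2, at 12.9, 2.04, 25.4 and 34.1 RPKM. In the other direction, the jasmonate repressor gene JAZ8 (AT1G30135) was at 0.366, 11.3, 0.483 and 3.66 RPKM, and RRTF1 (AT4G34410), a redox-responsive factor that an opposite-strand gene overlaps, at 0.0742, 4.45, 0.0948 and 1.65 RPKM. ICS1 and PR1 thus lay higher in myc2 R3 than in WT R3, and JAZ8 and RRTF1 lower.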

How the data were processed

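Leaf RNA of 4 groups was sequenced, 1 library each, and groups were taken from the sample titles. The authors deposited RPKM values for WT air, myc2 air and myc2 R3, per the names of their tables, and FPKM values for WT R3, per the file headers, under a file title that says RPKM. Both are called RPKM here. Per the submitters' processing notes, TopHat, Cufflinks and the TAIR10 genome were used. Settings, strand and treatment of reads with several matches are unknown here.

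From these values, log2((RPKM + 1)/(RPKM + 1)) was computed with pandas 2.3.3 for genes averaging 1 RPKM or more over the libraries set against each other, among all listed loci, and only the members are printed. Genes at least 2-fold apart were counted. No test was run. An approximate depth came from the commonest product of RPKM and RefSeq exon length between 0.02 and 0.06, taken as 1 fragment. It is approximate, since 16.7% to 19.2% of low loci came out within 0.02 of whole fragments. The smallest estimates, of a few fragments, are therefore rough, and counting errors were taken from them. Upstream sequences, positions and overlaps came from RefSeq TAIR10.1, whose locus tags held all 50 members, 48 under the symbol used here.

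The members and lists were chosen with earlier results of these data known. Members are named freely. All 4 values are given for those averaging 1 RPKM or more that were 2-fold apart in any comparison or among the 10 highest, and others by range, except WRKY3, set beside WRKY4. Of each further list, up to 4 genes with the largest WT ratios and those 2-fold apart between genotypes are named. Alternatives were pseudocounts of 0.1 and 5, no filter, a filter at 5 RPKM and 3 rescalings, with a filter on air alone added after seeing the data. The counting was checked on WT libraries simulated with counting noise alone. In these, 200 genes at 5 RPKM or more in air were raised or lowered. At 4-fold 100% were counted, and at 3-fold 100% of those raised and 99% of those lowered. Genes at lower levels and changes near 2-fold were not covered.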

Additional observations from a re-analysis of the deposited data

Results flagged for a closer look

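For 4 of the members averaging 1 RPKM or more over the 4 libraries the direction of a contrast was opposite in the groups compared, with each ratio outside the 95% interval of counting error around 0. The difference was not tested, since each group is 1 library. WRKY2 had a log2 ratio of R3 to air of 0.21 in WT and −0.26 in myc2, a difference of −0.48, and its WT direction turned under 2 of the 3 rescalings. For the ratio of myc2 to WT, WRKY26 stood at 0.41 in air and −0.33 at R3, a difference of −0.73. With the median of ratios its air ratio was 0.19, beside a counting error of 0.13, so it would not be flagged on that scale. WRKY65 stood at 0.54 and −0.38, a difference of −0.92. WRKY45 went the other way, at −0.44 in air and 0.36 at R3, a difference of 0.80. WRKY44, below that average at 0.873 RPKM, also showed opposite directions, with R3 to air at 0.32 in WT and −0.48 in myc2 and myc2 to WT at 0.42 in air and −0.37 at R3.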

How the results depend on the processing

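No paired analysis was possible because each group has 1 library. As reported, 79 ratios of the members described in full were at least 2-fold over the 4 comparisons. All kept their direction under each of the 7 other settings that gave a value, and between 60 (pseudocount 5) and 79 (pseudocount 0.1, and no filter) stayed at least 2-fold, while 15 had no value with the filter at 5 RPKM. The filter at 1 RPKM in the air library alone, added after seeing the data, gave 24 of 30 members higher at R3 in WT and 24 of 33 in myc2, since it tests fewer genes, against 26.8% and 19.5% of all genes. The members at least 2-fold higher in myc2 than in WT at R3 were 1 with a pseudocount of 5 (WRKY55) and 2 when rescaled to an equal sum (WRKY55 and WRKY38). Of all 50 members, the median of ratios ended 2-fold calls of R3 to air for WRKY4 and WRKY21 in both genotypes and for WRKY23, WRKY32, WRKY54 and WRKY57 in WT, and a pseudocount of 5 ended 8 in WT and 11 in myc2. A difference of responses of at least 1 was reached by 0 members with a pseudocount of 5 or the filter at 5 RPKM, which leaves WRKY55 out, and by 2 with the median of ratios, where WRKY45 joined. A difference of −1 or below was reached by 2 members with a pseudocount of 0.1 and by 3 with an equal sum, WRKY65 and WRKY62 among them in each. The members' median less that of all genes, −0.06 between genotypes in air, turned to 0.11 without a filter and to 0.16 with the filter at 5 RPKM. The cause was not tested. Levels below 0.1 RPKM rest on a few fragments, which limits what can be said of WRKY31, WRKY55, WRKY61, WRKY71 and WRKY72 in air.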
